A study of Homo sapiens with 24 samples.

Results

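The AP-1 and small MAF transcription factors were followed in HepG2 cells, an established human hepatoma line, as the rows of the count table that carry 10 gene names, out of 18915 genes in all. The 10 genes are the FOS family (FOS, FOSB, FOSL1 and FOSL2), the JUN family (JUN, JUNB and JUND) and the small MAFs (MAFF, MAFG and MAFK), and each had a row. Of these, 8 were among the 12685 genes that passed the expression filter, while FOS and FOSB did not pass. The genes were chosen by name.

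All cells were HepG2 kept for 10 h in fresh growth medium with either vehicle (DMSO), 50 nM ISRIB, 20 µM nelfinavir (Nelf), 50 nM bortezomib (Btz), 50 nM bortezomib with 20 µM nelfinavir (Btz+Nelf) or 50 nM bortezomib with 50 nM ISRIB (Btz+ISRIB). Bortezomib blocks the proteasome. Stress kinases phosphorylate the translation initiation factor eIF2α and thereby slow protein synthesis, nelfinavir raises the phosphorylated form, and ISRIB counters its effect on translation. Each of the 6 groups had 4 libraries, described as biological replicates of a single cell line, and total counts ran from 5154533 to 6943164 per library. The libraries hold tags from the 3′ ends of transcripts, so counts were not divided by transcript length, and levels are given as CPM, the count of a gene relative to the TMM-scaled size of its library. All 9 hepatocyte lineage markers were above 1 CPM in DMSO, and the summed fibroblast and endothelial markers that had a row stayed at or below 1.11 and 0.194 CPM in every library. The leukocyte list summed to 66.8 to 439 CPM over the 3 of its genes that had a row, which did not include its defining markers PTPRC and CD3E, with means of 378 CPM in DMSO and 112 CPM in Btz. Mitochondrially encoded genes held 21.5% of all counts in DMSO, 33.8% in Btz, 27.2% in Btz+Nelf and 36.1% in Btz+ISRIB, and with these genes left out, 7, 6, 0, 5, 3, 5, 3 and 0 members were called in the 8 comparisons, the same counts as with them, and the log2 fold change of JUN between Btz and DMSO was 2.41 in place of 2.45.

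AP-1 is a dimer of basic leucine zipper proteins. FOS proteins bind DNA chiefly as partners of a JUN protein, whereas JUN proteins can also pair with each other or with ATF proteins. The genes are known for fast induction by growth factors and by stress kinases. The small MAFs belong to the same superfamily but lack a transactivation domain: as pairs among themselves they repress, and as partners of CNC factors such as NFE2L2 (NRF2) and NFE2L1 (NRF1) they occupy antioxidant elements in front of cytoprotective and, for NFE2L1, proteasome genes. Many proteins of both families, JUN and FOS among them, are short-lived and are removed by the proteasome, and the libraries measure RNA and not protein.

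The promoter sequence just upstream of the RefSeq start site (GRCh38.p14) is shown for the JUN family, whose members parted in their response, and for the small MAFs with a listed window, which responded to both bortezomib and nelfinavir. Each line is 250 bases, 5′ to 3′ on the strand of the gene, and capitals mark matches, on either strand, to motifs searched for by their letters: the AP-1 site TGANTCA, the cyclic AMP response element TGACGTCA, the C/EBP-ATF composite site TGATGNAA, the antioxidant element core TGACNNNGC, and the heat shock element cores TTCNNGAA and GAANNTTC. The CArG box of serum response factor was searched for as well. The antioxidant core can overlap the cyclic AMP element where both share the letters TGAC.
JUN (chr1:58784048-58784297, minus strand): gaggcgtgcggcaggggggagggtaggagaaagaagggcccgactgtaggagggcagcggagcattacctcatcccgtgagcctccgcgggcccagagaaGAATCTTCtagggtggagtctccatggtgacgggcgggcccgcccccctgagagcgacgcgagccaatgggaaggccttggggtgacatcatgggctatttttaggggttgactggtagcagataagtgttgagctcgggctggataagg
JUNB (chr19:12791236-12791485, plus strand): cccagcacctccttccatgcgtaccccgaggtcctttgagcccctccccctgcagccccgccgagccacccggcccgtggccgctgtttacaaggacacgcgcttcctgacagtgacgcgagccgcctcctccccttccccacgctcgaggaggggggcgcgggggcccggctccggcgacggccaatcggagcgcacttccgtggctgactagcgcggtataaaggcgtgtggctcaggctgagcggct
JUND (chr19:18281623-18281872, minus strand): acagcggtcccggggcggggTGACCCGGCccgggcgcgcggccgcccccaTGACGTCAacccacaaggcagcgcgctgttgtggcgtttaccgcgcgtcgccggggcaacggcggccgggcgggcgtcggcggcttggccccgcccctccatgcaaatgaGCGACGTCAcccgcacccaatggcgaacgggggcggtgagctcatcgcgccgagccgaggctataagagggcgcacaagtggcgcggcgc
MAFF (chr22:38201744-38201993, plus strand): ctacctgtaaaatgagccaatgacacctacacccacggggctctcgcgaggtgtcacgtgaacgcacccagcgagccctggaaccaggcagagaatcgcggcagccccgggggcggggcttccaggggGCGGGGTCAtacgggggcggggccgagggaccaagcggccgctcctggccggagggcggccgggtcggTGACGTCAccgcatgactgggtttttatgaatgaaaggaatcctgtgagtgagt
MAFG (chr17:81927736-81927985, minus strand): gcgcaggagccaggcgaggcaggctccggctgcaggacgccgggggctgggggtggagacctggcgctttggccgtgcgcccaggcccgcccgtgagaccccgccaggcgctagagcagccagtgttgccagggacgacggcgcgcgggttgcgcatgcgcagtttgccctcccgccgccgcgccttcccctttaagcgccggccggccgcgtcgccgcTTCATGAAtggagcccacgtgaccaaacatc

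A full cyclic AMP element lay 54 bases before the MAFF start and 200 bases before the JUND start, a motif held by 1.85% of 35116 promoter windows of the same 300 bases (250 before and 50 after a start). JUND held the antioxidant core at 2 places and MAFF at 1, against 13.3% of all windows with a match. A heat shock element core stood 150 bases before the JUN start and 31 bases before the MAFG start, against 13.5% of all windows. An AP-1 site was found in FOSL2, beginning at base 5 after its start, and 7.71% of all windows hold such a site. No match was found in the JUNB, FOS and FOSB windows or in a second MAFF window, and none of the 8 members with a window matched the C/EBP-ATF site (3.62% of windows) or the CArG box (1.29%). The search covered only these windows and these letters, so a site further from the start or with other letters would be missed. FOSL1 and MAFK have no entry in the table.

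Across the 24 libraries the members fell into 3 patterns. JUN, JUND, FOSL1 and FOSL2 rose with Btz, and of these only FOSL2 and JUN were called higher again when nelfinavir was added, by 1.55- and 1.24-fold; the small MAFs rose with Btz and rose again by 1.91- to 3.16-fold with nelfinavir; and JUNB was not called different from DMSO in any single-drug comparison. FOS and FOSB stayed near the limit of detection. Summed over its members, the FOS family went from 14.6 ± 3.17 CPM in DMSO to 58.1 ± 8.21 in Btz and 65.99 ± 11.3 in Btz+Nelf, and the JUN family from 108 ± 5.47 to 348 ± 22.1 and 420.0 ± 35.6 (mean ± SD, n = 4 each). The small MAF total was 109.8 ± 7.24 CPM in DMSO, 190.5 ± 21.2 in Nelf, 474 ± 15.6 in Btz and 1060.5 ± 116 in Btz+Nelf, the last being 9.66 times the DMSO mean. In bulk RNA, more cells with a transcript and more transcript per cell cannot be told apart.

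**Figure D1:**
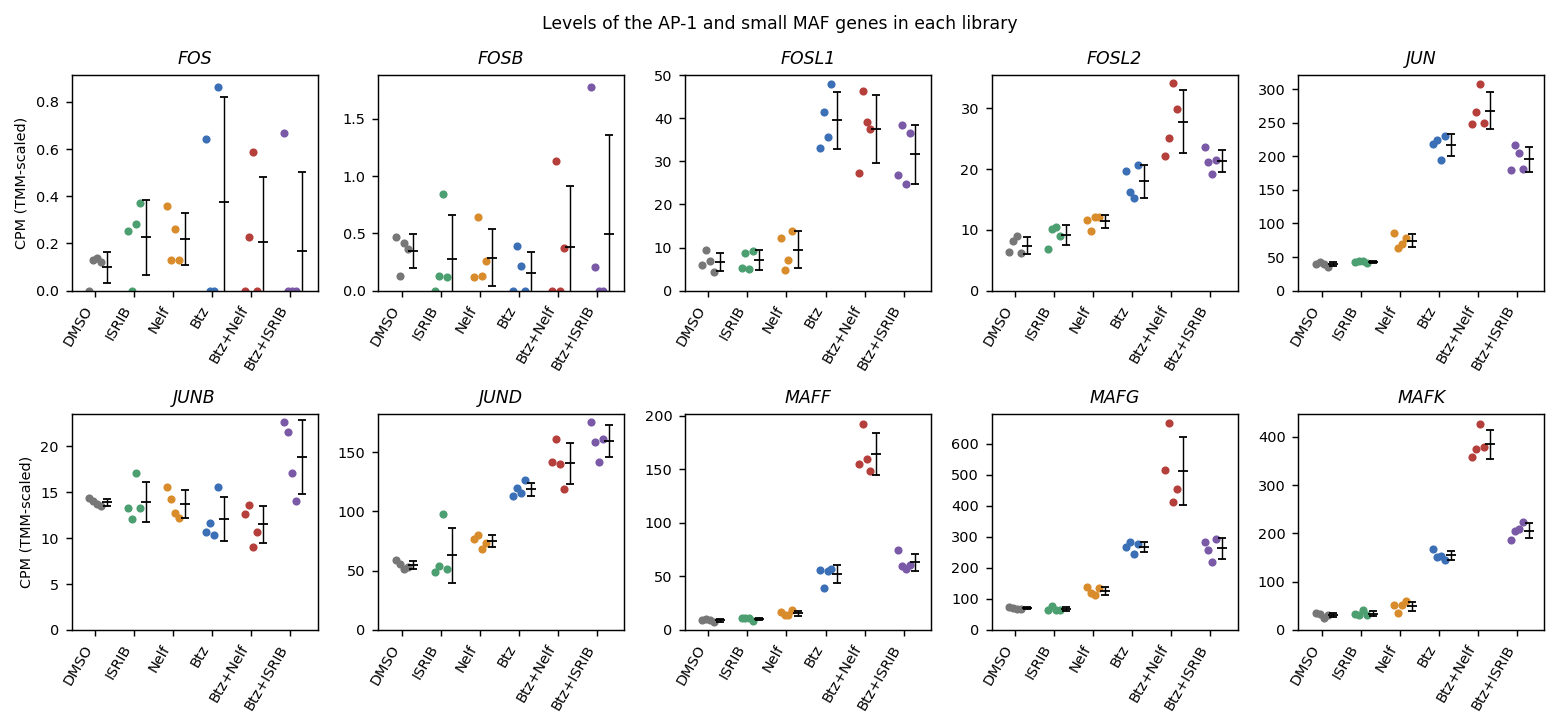
Level of each of the 10 genes in every library, in TMM-scaled CPM on a linear axis that starts at 0, with 1 point per library and the group mean ± SD beside the points (n = 4). MAFF ranges from 148 to 192 CPM in Btz+Nelf, above every library of the other groups, while the JUNB libraries of the Btz group range from 10.3 to 15.6 CPM and overlap those of DMSO.

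Bortezomib alone was compared with DMSO to see how proteasome inhibition changes these factors. Of the 8 members tested, 7 were higher and 0 lower, in a comparison where 27.6% of all tested genes were called higher, 25.8% lower and 53.4% were called in either direction at an adjusted p under 0.05 (quasi-likelihood test of edgeR, adjusted by Benjamini-Hochberg over all tested genes, as is every adjusted p below). The median log2 fold change of the 8 members was 2.12, beside 0.00 over all tested genes. The libraries of the 2 groups did not overlap for 7 of the 8 members, against 50.0% of all tested genes. With library totals alone in place of TMM factors, the median of all genes moved by -0.50, and the same 7 members were still called higher.

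FOSL1, which encodes the FRA-1 protein, was at 6.04, 9.50, 6.86 and 4.41 CPM in the DMSO libraries and at 33.1, 41.5, 35.7 and 47.98 CPM in the Btz libraries. Every Btz library was above every DMSO library, and the log2 fold change was 2.56 ± 0.255 (SE) at an adjusted p of 2.74e-10. FOSL2, which encodes FRA-2, read 6.39, 8.20, 8.96 and 6.13 CPM in DMSO and 19.7, 16.3, 15.2 and 20.7 CPM in Btz. The groups were again apart, with a smaller log2 fold change of 1.28 ± 0.179 (SE) at an adjusted p of 2.82e-07. The composition of the FOS family shifted with this: FOSL1 held 45.4% ± 5.77 of the family's counts in DMSO and 68.03% ± 4.14 in Btz, while FOSL2 went from 51.4% ± 4.64 to 31.1% ± 3.90 (mean ± SD, n = 4). The last 500 bases of FOSL1 resemble the pseudogene FOSL1P1 over 259 bases at 97.3% identity, so that its counts are uncertain to that extent.

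FOS (chr14:75745529-75748933) and FOSB (chr19:45971253-45978437, both GRCh37), immediate early genes of the family, gave 31 and 47 counts in all 24 libraries together, with at least 1 count in 15 and 17 libraries. No library held more than 0.864 CPM of FOS or 1.78 CPM of FOSB. Neither gene passed the filter. When all 18915 genes were tested without it, neither was called in any of the 8 comparisons, with adjusted p values from 0.35 to 1 (edgeR quasi-likelihood test), and counts this low leave wide room for a difference.

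JUN, the founding member of its family and a target of its own protein, was at 39.9, 42.96, 40.03 and 35.7 CPM in DMSO and 219, 224, 194 and 231 CPM in Btz. The lowest Btz library was above the highest DMSO library by a wide margin, and JUN rose 5.48-fold (log2 fold change 2.45 ± 0.1005 (SE) at an adjusted p of 5.55e-20). JUND, which is usually expressed in resting cells, read 58.6, 55.97, 51.4 and 53.1 CPM in DMSO and 113, 119, 115 and 126 CPM in Btz. It was 2.16-fold higher, with no overlap between the groups (log2 fold change 1.11 ± 0.139 (SE) at an adjusted p of 3.42e-08).

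JUNB, a weaker activator that can counteract JUN, differed from both relatives. Its libraries read 14.4, 14.1, 13.7 and 13.5 CPM in DMSO and 10.7, 11.6, 10.3 and 15.6 CPM in Btz. The groups overlapped through the last of the Btz values, and the log2 fold change was -0.21 ± 0.178 (SE) at an adjusted p of 0.339, with a 95% interval of -0.57 to 0.15. JUNB was called lower in Btz under library totals alone, with a log2 fold change of -0.71 and an adjusted p of 0.00103. JUN's share of the JUN family counts went from 36.6% ± 1.71 in DMSO to 62.4% ± 1.36 in Btz, that of JUND from 50.6% ± 1.59 to 34.1% ± 1.31 and that of JUNB from 12.9% ± 0.330 to 3.45% ± 0.488. JUN replaced JUND as the most counted member of the family.

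Among the small MAFs, MAFF was at 9.30, 9.89, 8.96 and 7.23 CPM in DMSO and 56.2, 39.6, 54.9 and 56.8 CPM in Btz. The Btz libraries were all above the DMSO libraries, although the second of them was below the other 3, and MAFF rose 5.85-fold (log2 fold change 2.55 ± 0.145 (SE) at an adjusted p of 3.23e-16). MAFG read 73.3, 70.4, 66.9 and 67.9 CPM in DMSO and 268, 282, 245 and 275 CPM in Btz, a 3.84-fold rise without overlap (log2 fold change 1.94 ± 0.115 (SE) at an adjusted p of 8.75e-16). MAFK read 34.6, 33.97, 25.8 and 30.9 CPM in DMSO and 168, 151, 153 and 145 CPM in Btz, a 4.92-fold rise, also without overlap (log2 fold change 2.30 ± 0.120 (SE) at an adjusted p of 3.98e-17).

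Exons of 3 of the small MAF and 1 of the JUN family genes overlap other genes with a row in the table, and the strand setting of the counting is not given in the sources used here. In the GENCODE annotation on GRCh37, MAFF (chr22:38596774-38612514) overlaps PLA2G6 on the opposite strand, over 308 of its last 500 bases, and PLA2G6 stayed between 1.07 and 4.21 CPM in all 24 libraries. MAFK (chr7:1570338-1582679) overlaps TMEM184A on the opposite strand over all of its last 500 bases, and TMEM184A was higher in Btz by 0.64 on the log2 scale (adjusted p = 0.000107). MAFG (chr17:79876146-79885611) overlaps SIRT7 on the same strand, and SIRT7 was higher in Btz by 1.42 (adjusted p = 8.1e-12). JUNB (chr19:12902300-12904129) overlaps HOOK2 on the opposite strand, and HOOK2 was not called different (log2 fold change -0.34, adjusted p = 0.129). No match to SIRT7 or HOOK2 was found in the last 500 bases of MAFG or JUNB. The part of these overlaps in the results was not tested. JUN (chr1:59242517-59249720), JUND (chr19:18390504-18392432), FOSL1 (chr11:65659520-65668044) and FOSL2 (chr2:28615315-28640184) have no such overlap in this annotation. The paper counted reads against Ensembl gene annotations, in which these overlaps can differ.

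**Figure D2:**
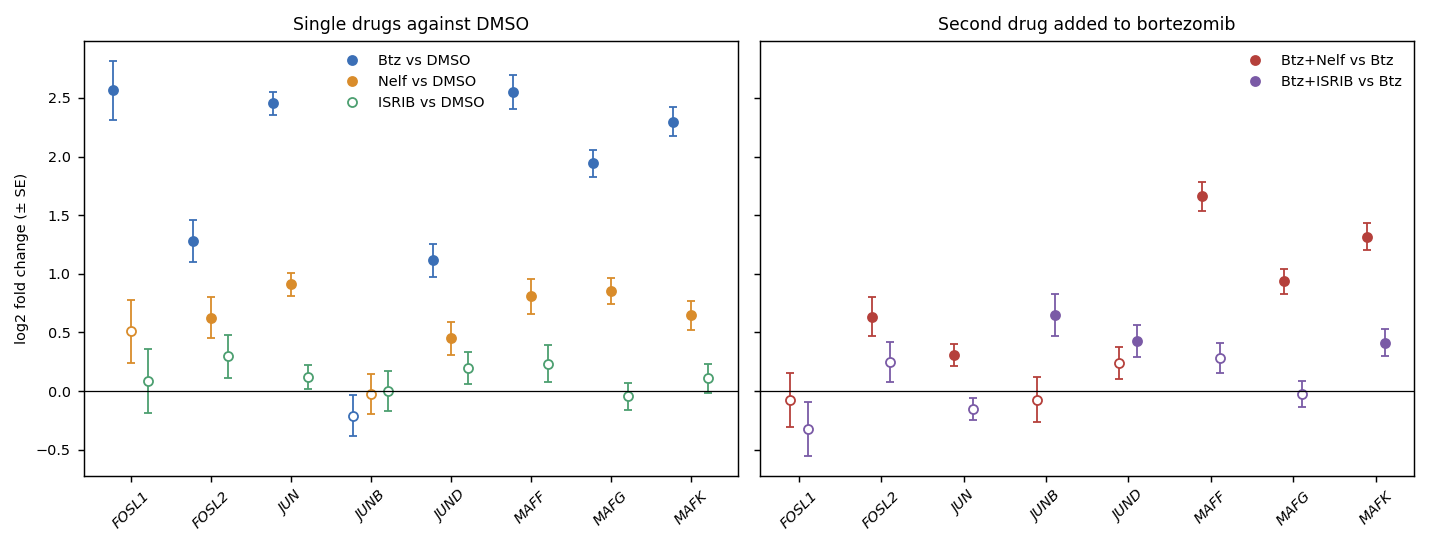
Log2 fold change ± SE of the 8 tested genes for each drug alone against DMSO (left) and for nelfinavir or ISRIB added to bortezomib (right), with filled points for an adjusted p under 0.05 and open points otherwise. Bortezomib gave values from 1.11 to 2.56 for the 7 genes called, and adding nelfinavir gave its 3 highest values at MAFF, MAFK and MAFG.

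Nelfinavir alone raised 6 of the 8 members and lowered 0, where 10.4% of all tested genes were called higher, 8.84% lower and 19.2% in either direction. The median log2 fold change of the members was 0.64, beside 0.01 over all tested genes, and 6 members had libraries that did not overlap with DMSO, against 29.6% of all tested genes. This comparison and the preceding one share the DMSO libraries. JUN was at 85.5, 63.9, 69.95 and 78.5 CPM in the Nelf libraries, all above DMSO, and rose 1.88-fold (log2 fold change 0.91 ± 0.0989 (SE) at an adjusted p of 1.2e-08). MAFG, at 138, 119, 112 and 134 CPM, rose 1.81-fold (log2 fold change 0.85 ± 0.113 (SE) at an adjusted p of 6.02e-07). MAFF, at 16.7, 13.6, 13.5 and 18.2 CPM, rose 1.75-fold (log2 fold change 0.81 ± 0.151 (SE) at an adjusted p of 0.000138).

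MAFK read 50.6, 35.9, 50.7 and 58.9 CPM in Nelf, with the lowest library just above the highest DMSO library, and its log2 fold change was 0.65 ± 0.120 (SE) at an adjusted p of 0.00014. FOSL2 (11.4 ± 1.10 CPM, SD, n = 4) and JUND (74.8 ± 5.09 CPM) were called higher by smaller amounts, with log2 fold changes of 0.63 ± 0.178 (SE) at an adjusted p of 0.0104, and 0.45 ± 0.138 (SE) at an adjusted p of 0.0187. The FOSL2 call was lost without DMSO replicate 4 and the JUND call without DMSO replicate 3 or Nelf replicate 2, where the adjusted p reached 0.05 and 0.0566. FOSL1 spread widely in Nelf, at 12.3, 4.78, 7.14 and 13.8 CPM, overlapped DMSO and was not called (log2 fold change 0.51 ± 0.268 (SE) at an adjusted p of 0.205), although without Nelf replicate 2 the adjusted p was 0.0454. JUNB had a log2 fold change of -0.02 with a 95% interval of -0.37 to 0.32. TMEM184A, which overlaps MAFK, was higher in Nelf by 0.92 on the log2 scale, and SIRT7, which overlaps MAFG, stood at 0.07 (adjusted p = 0.779).

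ISRIB alone gave no call among the 8 members. Over all tested genes 0.00% were called by edgeR, with 703 genes at an unadjusted p under 0.05 and 21 called by DESeq2, and no member was among either (0 of 8 in both). The libraries of 0 of the 8 members were apart between ISRIB and DMSO, against 8.01% of all tested genes. The log2 fold changes of the members ran from -0.04 for MAFG to 0.30 for FOSL2. The 95% interval of JUN was -0.09 to 0.32 and that of FOSL2 -0.07 to 0.66. JUND had a library at 97.4 CPM in this group, where the other 3 lay between 48.9 and 53.8 CPM.

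Nelfinavir was added to bortezomib to increase signalling through eIF2α and ATF4. Against Btz alone, 5 of the 8 members were higher and 0 lower, where 15.6% of all tested genes were called higher, 13.4% lower and 28.9% in either direction. The median log2 fold change of the members was 0.47, beside -0.02 over all tested genes, and 5 members did not overlap between the groups, against 21.5% of all tested genes. The small MAFs moved most. MAFF was at 155, 192, 159.5 and 148 CPM in Btz+Nelf, every library above every Btz library, and rose 3.16-fold (log2 fold change 1.66 ± 0.126 (SE) at an adjusted p of 6.15e-12). MAFK, at 358, 375, 428 and 379 CPM, rose 2.49-fold (log2 fold change 1.32 ± 0.112 (SE) at an adjusted p of 6.83e-11). MAFG, at 514, 666, 413 and 455 CPM, varied more between libraries but stayed above Btz in each, and rose 1.91-fold (log2 fold change 0.94 ± 0.110 (SE) at an adjusted p of 6.15e-08).

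The genes that overlap the small MAFs were not called in this comparison. PLA2G6, SIRT7 and TMEM184A had log2 fold changes of -0.23, -0.12 and -0.03 on adding nelfinavir to Btz, with adjusted p of 0.746, 0.483 and 0.877. Within the family, MAFF went from 10.96% ± 1.74 of the small MAF counts in Btz to 15.4% ± 0.413 in Btz+Nelf, and MAFG from 56.5% ± 2.66 to 47.9% ± 5.42 (mean ± SD, n = 4). In DMSO, MAFG had held 63.5% ± 1.85 and MAFF 8.06% ± 0.909.

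The FOS and JUN families changed less. FOSL2 was at 22.2, 25.2, 34.2 and 29.8 CPM, above every Btz library, with a log2 fold change of 0.64 ± 0.167 (SE) at an adjusted p of 0.00432. JUN was at 248, 267, 308 and 250.0 CPM, also above every Btz library, and rose 1.24-fold (log2 fold change 0.30 ± 0.0929 (SE) at an adjusted p of 0.013). The JUN call was lost without Btz+Nelf replicate 3, at an adjusted p of 0.0504, and in a model of only these 2 groups. FOSL1 (37.6 ± 7.86 CPM, SD, n = 4) and JUNB (11.5 ± 2.05 CPM) overlapped Btz, with 95% intervals of the log2 fold change of -0.54 to 0.39 and -0.45 to 0.31. JUND had a log2 fold change of 0.24 ± 0.136 (SE) at an adjusted p of 0.185, and was not called.

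**Figure D3:**
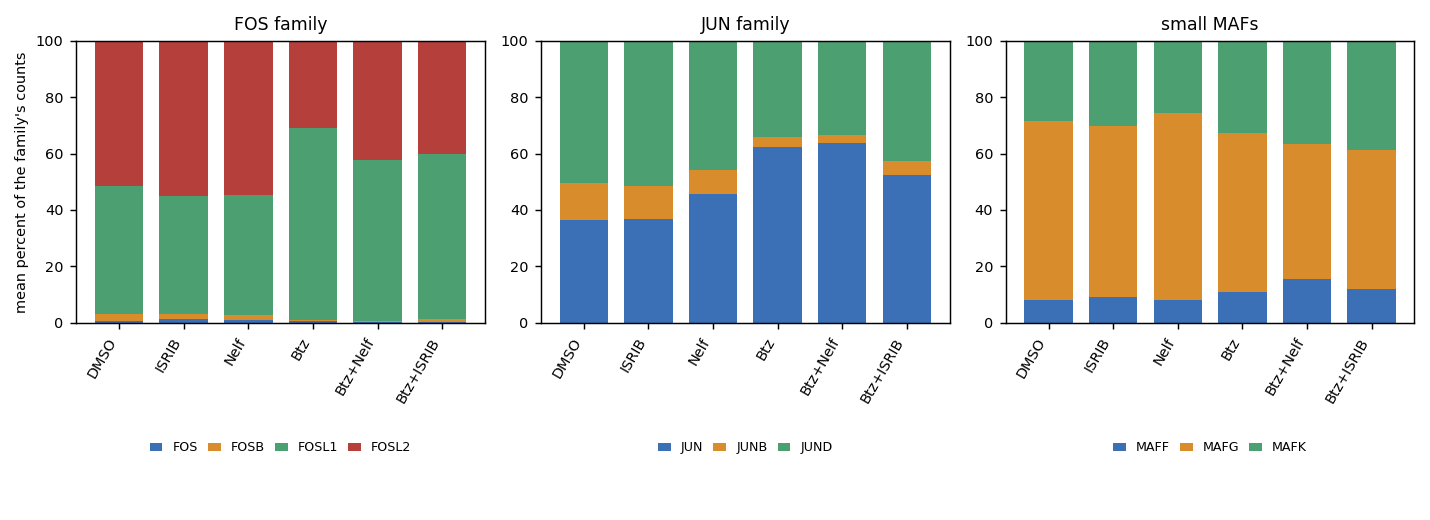
Mean percentage of each family's counts taken by each member in the 6 groups (n = 4 libraries per group), as stacked bars that add to 100. JUN grows from 36.6% of the JUN family in DMSO to 62.4% in Btz, FOSL1 from 45.4% to 68.03% of the FOS family, and MAFF from 8.06% in DMSO to 15.4% of the small MAFs in Btz+Nelf.

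Whether nelfinavir acted differently with bortezomib present was tested as an interaction, the log2 fold change on adding nelfinavir to Btz minus that on adding it to DMSO. A value of 0 on this scale means equal fold changes, not equal changes in CPM. Of the 8 members 3 were called, 2 with a positive and 1 with a negative value, where 19.7% of all tested genes were called, 9.74% positive and 10.0% negative. MAFF gained more from nelfinavir with Btz than without, by 0.85 ± 0.196 (SE) at an adjusted p of 0.00199, and so did MAFK, by 0.67 ± 0.163 (SE) at an adjusted p of 0.00317. JUN gained less, with an interaction of -0.61 ± 0.135 (SE) at an adjusted p of 0.00144. MAFG, at 0.85 without and 0.94 with Btz, had an interaction of 0.08 with a 95% interval of -0.24 to 0.40. The remaining members were not called, and their intervals were wide for FOSL1, at -1.30 to 0.13.

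**Figure D4:**
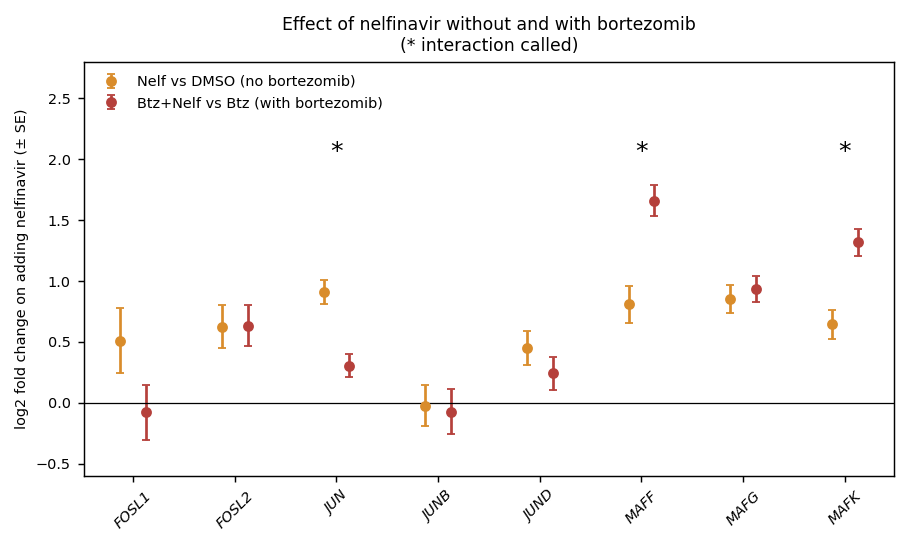
Log2 fold change ± SE on adding nelfinavir without bortezomib (Nelf vs DMSO) and with it (Btz+Nelf vs Btz) for the 8 tested genes, with an asterisk where the difference between the 2 was called at an adjusted p under 0.05. MAFF goes from 0.81 to 1.66 and MAFK from 0.65 to 1.32, whereas JUN goes from 0.91 to 0.30.

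ISRIB was added to bortezomib to blunt signalling through eIF2α. Against Btz alone, 3 of the 8 members were higher and 0 lower, where 6.91% of all tested genes were called higher, 5.34% lower and 12.2% in either direction. The median log2 fold change of the members was 0.26, beside 0.01 over all tested genes, and 3 members did not overlap between the groups, against 12.5% of all tested genes. This comparison shares the Btz libraries with that of Btz+Nelf. MAFK was at 186, 205, 208 and 223 CPM, above every Btz library, and rose 1.33-fold (log2 fold change 0.41 ± 0.111 (SE) at an adjusted p of 0.0115). TMEM184A, which overlaps it, was lower, at -0.44 on the log2 scale (adjusted p = 0.0275).

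JUNB, which was not called for Btz alone, read 22.7, 21.6, 17.1 and 14.1 CPM in Btz+ISRIB. Of these libraries, 3 were above every Btz library and the last was not, and the log2 fold change was 0.65 ± 0.181 (SE) at an adjusted p of 0.0149. JUND, at 175, 158, 142 and 161 CPM, did not overlap Btz, and its log2 fold change was 0.42 ± 0.136 (SE) at an adjusted p of 0.0361. Both calls rested on particular libraries: the JUNB call was lost without Btz replicate 3, Btz+ISRIB replicate 1 or Btz+ISRIB replicate 2 (adjusted p up to 0.0653), and the JUND call when any single library among Btz replicates 1, 2 and 3 and Btz+ISRIB replicates 1, 2 and 4 was left out (up to 0.104). The JUNB call was also lost in a model of only these 2 groups, and the JUND call with library totals alone.

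The other 5 members were not called. MAFF read 74.8, 59.7, 56.8 and 60.7 CPM, with the lowest library level with the highest Btz library to the digits given, and changed on the log2 scale by 0.28 ± 0.128 (SE) at an adjusted p of 0.153. JUN (179, 216, 205 and 181 CPM) overlapped Btz and had a log2 fold change of -0.15, with a 95% interval of -0.34 to 0.04. FOSL1 had -0.32 with an interval of -0.79 to 0.15, FOSL2 had 0.25 and MAFG -0.02. For the interaction of ISRIB with bortezomib, edgeR called 0 of 8 members, against 4.82% of all tested genes (2.93% positive and 1.89% negative), and 1 member had an unadjusted p under 0.05, JUNB at 0.65 ± 0.248 (SE) at an adjusted p of 0.131. DESeq2 called 0 members for this interaction as well. Without ISRIB replicate 3, the library in which JUND stood high, the JUND interaction was called at 0.52 with an adjusted p of 0.0242.

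The 2 co-treatments were also compared directly. Between Btz+Nelf and Btz+ISRIB, 5 of 8 members were called, against 24.4% of all tested genes, with 4 higher and 1 lower in Btz+Nelf where 13.2% of all tested genes were higher and 11.3% lower. The libraries of 5 members did not overlap, against 18.3% of all tested genes. MAFF, MAFG and MAFK were higher in Btz+Nelf, by 1.38, 0.96 and 0.90 on the log2 scale (adjusted p = 3.81e-10, 4.84e-08 and 1.56e-07), and JUN was higher by 0.46 ± 0.0933 (SE) at an adjusted p of 0.000404. JUNB was lower in Btz+Nelf, at -0.72 ± 0.182 (SE) at an adjusted p of 0.00344, and its libraries did not overlap between the groups. FOSL2 had 0.39 ± 0.166 (SE) at an adjusted p of 0.0872, and was called when Btz+Nelf replicate 1 or 2 was left out.

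In order of level, MAFG had the highest mean CPM of the 10 genes in all 6 groups, and FOS and FOSB held the last 2 places in each. The MAFG libraries overlapped those of JUND in ISRIB and those of MAFK in Btz+ISRIB. In DMSO the order was MAFG, JUND, JUN, MAFK, JUNB, MAFF, FOSL2 and FOSL1, with overlap between neighbours for MAFF with FOSL2 and for FOSL2 with FOSL1. In Btz it was MAFG, JUN, MAFK, JUND, MAFF, FOSL1, FOSL2 and JUNB, with overlap for MAFF with FOSL1 and for FOSL2 with JUNB. In Btz+Nelf the libraries of MAFG and MAFK overlapped, and MAFF (164 ± 19.5 CPM) and JUND (140.4 ± 17.3 CPM) overlapped as well. These are levels in CPM per gene, and how well each 3′ end was captured is not known.

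The genes whose levels followed each member most closely over the 24 libraries, by Pearson correlation of log2 CPM, were found among the other tested genes. For JUN these were GABARAPL1 (r = 0.993), SMOX (r = 0.992) and GDF15 (r = 0.989), an autophagy gene, a polyamine oxidase gene and a stress-induced secreted factor. For MAFF they were ZFAND2A (r = 0.984), CSNK1D (r = 0.984) and GTPBP1 (r = 0.983), and for MAFK ZFAND2A (r = 0.988), SLC20A1 (r = 0.987) and GTPBP1 (r = 0.987), so that ZFAND2A, a proteasome-associated zinc finger gene known for induction by arsenite, and GTPBP1 were on both lists. MAFG was followed by LINC00657 (r = 0.988), MXD1 (r = 0.986) and HBP1 (r = 0.986). FOSL1 was followed by GLA (r = 0.961), RIOK3 (r = 0.956) and EIF3I (r = 0.955), FOSL2 by YKT6 (r = 0.966), PVR (r = 0.958) and SERPINE2 (r = 0.956), and JUND by SPTLC2 (r = 0.962), RAB11B (r = 0.958) and UBFD1 (r = 0.956). JUNB had a weaker best match, LASP1 (r = 0.842), then S100A6 (r = 0.765) and SCD (r = 0.746), and its correlation with the other 7 members ran from -0.14 to 0.19, while those among the other 7 ran from 0.85 to 0.99. All these values are over libraries of 6 shared treatment groups and share each library's scaling.

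Among dimer partners that are not members, ATF3, JDP2 and BATF were called. Of 6 AP-1 dimer partners tested (ATF and BATF proteins and JDP2), 3 were higher and 0 lower in Btz than in DMSO, near the 53.4% of all tested genes that were called in either direction (27.6% higher and 25.8% lower), with a median log2 fold change of 1.14 beside 0.00 over all tested genes. ATF3, a stress-induced partner of JUN and a target of ATF4, went from 1.65 ± 0.416 CPM in DMSO to 11.8 ± 2.00 in Nelf, 70.9 ± 6.39 in Btz, 109 ± 5.33 in Btz+Nelf and 36.6 ± 3.56 in Btz+ISRIB (SD, n = 4). It was higher in Btz+Nelf than in Btz and lower in Btz+ISRIB, at 0.61 and -0.95 on the log2 scale (adjusted p = 0.000188 and 1.85e-06). In Btz+ISRIB against Btz, 0 of the 8 tested members were called lower, near the 5.34% of all tested genes called lower. JDP2, a repressor that pairs with JUN, went from 0.129 ± 0.107 CPM in DMSO to 4.73 ± 0.854 in Nelf and 1.57 ± 0.173 in Btz. Its level was 5.44 ± 0.98 CPM in Btz+Nelf and 2.76 ± 0.88 in Btz+ISRIB. The rise from Btz to Btz+Nelf was 1.78 on the log2 scale (adjusted p = 0.000869). BATF, a partner of JUN known from lymphocytes, was higher in Btz by 1.82 (adjusted p = 6.98e-05).

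Of 5 CNC and BACH partners of the small MAFs tested, 2 were higher and 2 lower in Btz, against 27.6% and 25.8% of all tested genes, with a median of 0.26. BACH1, a repressor at antioxidant elements, went from 8.80 ± 0.967 to 21.4 ± 6.27 CPM, a change of 1.28 on the log2 scale at an adjusted p of 5.64e-07, and NFE2L1, an activator of proteasome genes, from 45.8 ± 2.70 to 75.3 ± 3.21 CPM (0.72, adjusted p = 1.59e-07). NFE2L3 was lower, at -1.45 (adjusted p = 0.000116), and NFE2 fell from 3.82 ± 0.725 to 0.254 ± 0.299 CPM. On adding nelfinavir to Btz, 0 of these 5 partners were called, where 28.9% of all tested genes were called in either direction. With 5 genes, this count does not show that the partners stayed unchanged. All 3 small MAFs rose in the same comparison. BACH2 is not analysed here. Of the large MAF factors, only NRL was tested, and it was not called in any comparison.

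Target genes were counted in separate lists for the small MAFs and for AP-1. Of 11 textbook CNC-small MAF targets tested, which carry antioxidant elements, 10 were higher and 0 lower in Btz, against 27.6% and 25.8% of all tested genes, with a median of 0.80. The cystine transporter SLC7A11 rose by 3.74, thioredoxin reductase TXNRD1 by 2.73, the glutathione synthesis subunit GCLM by 2.61 and OSGIN1 by 2.27 on the log2 scale (adjusted p = 1.65e-24, 1.55e-15, 5.43e-17 and 6.08e-17). In Nelf, 7 of the 11 were higher and 0 lower than in DMSO, against 10.4% and 8.84% of all tested genes. With Btz present, adding nelfinavir raised 1 and lowered 2 (15.6% and 13.4% of all tested genes), and in the interaction 7 were called and all 7 were negative, as were 10.0% of all tested genes, with a median of -0.58 beside -0.02 over all tested genes. SLC7A11 had an interaction of -3.10 (adjusted p = 6.58e-18), where MAFF and MAFK had positive ones. Whether the small MAFs set the levels of these targets in these cells was not tested. The SLC7A11 means were 32.2 CPM in DMSO, 280 in Nelf, 432 in Btz and 438 in Btz+Nelf. It was thus high with each drug alone and little higher with both.

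Of 10 textbook AP-1 targets tested, 5 were higher and 2 lower in Btz, against 27.6% and 25.8% of all tested genes, with a median of 0.56. The cytokine IL11 went from 0.0350 ± 0.0700 CPM in DMSO to 13.3 ± 4.18 in Btz and 53.3 ± 6.64 in Btz+Nelf. The cytokine LIF rose by 2.18 and the growth factor HBEGF by 1.91 (adjusted p = 0.00123 and 1.81e-05). The 2 lower targets were the cyclin CCND1 and the secreted phosphoprotein SPP1, at -1.87 and -0.84 (adjusted p = 2.54e-12 and 8.65e-06). Adding nelfinavir to Btz raised 4 and lowered 1 of these targets, against 15.6% and 13.4% of all tested genes, with IL11 higher by 2.01 and HBEGF by 1.88, and SPP1 lower again, at -1.02. CCND1 was higher by 1.28 in this comparison, with levels of 148 ± 3.45 CPM in DMSO, 40.4 ± 8.89 in Btz and 98.3 ± 15.9 in Btz+Nelf, so that its mean in Btz+Nelf was still below that of DMSO. The matrix metalloproteinases of the list did not pass the filter, and CXCL8 and CD44 are not analysed here.

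**Figure D5:**
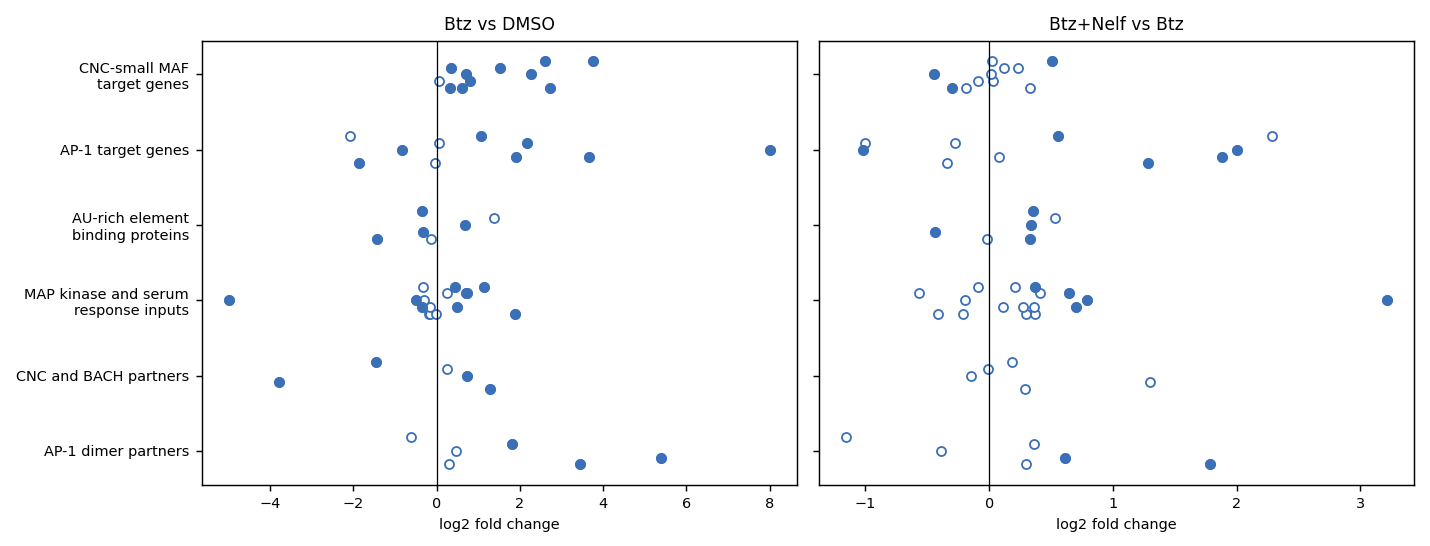
Log2 fold change of each tested gene in 6 lists of partners, inputs, RNA-binding proteins and targets, for Btz against DMSO (left) and Btz+Nelf against Btz (right, on its own scale), with filled points for an adjusted p under 0.05 and vertical offsets only to separate points. For the CNC-small MAF targets, 10 of 11 points are filled and positive on the left, and 1 is filled and positive on the right.

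Of 17 MAP kinase and serum response inputs tested, 6 were higher and 3 lower in Btz, a share called near the 53.4% of all tested genes, with a median of -0.16. The kinase gene MAPK8 (JNK1), which phosphorylates JUN, was higher by 1.14 (adjusted p = 2.53e-06), MAP2K1 by 0.73 (adjusted p = 0.00522) and the ternary complex factor ELK1 by 1.89 (adjusted p = 0.000121), while MAP2K6 went from 3.93 ± 1.79 to 0.108 ± 0.216 CPM. Adding nelfinavir to Btz raised 5 and lowered 0, against 15.6% and 13.4% of all tested genes. The largest of these changes was that of MAP2K6, at 3.22 (adjusted p = 0.00868), with a level of only 1.16 ± 0.623 CPM in Btz+Nelf. SRF, which binds the CArG box, was higher by 0.70, and ELK4 by 0.79.

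Of 4 ubiquitin ligase components that act on JUN, ITCH was higher in Btz by 0.98 (adjusted p = 3.2e-08) and the other 3 were not called, where 53.4% of all tested genes were called. FBXW7 and ITCH were higher on adding nelfinavir to Btz (15.6% of all tested genes), by 0.82 and 0.36 (adjusted p = 0.000161 and 0.0229). Of 6 proteins that bind AU-rich elements, the sequence that shortens the life of FOS and JUN transcripts, 1 was higher and 3 lower in Btz, against 27.6% and 25.8% of all tested genes, with a median of -0.22. Among them, ZFP36L2 fell by 1.42 and KHSRP rose by 0.69 (adjusted p = 5.5e-12 and 6.61e-06).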

How the data were processed

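RNA from 24 HepG2 libraries (6 groups of 4) was made into 3′ tag libraries with a QuantSeq FWD kit. As deposited, the values are raw read counts per gene for 18915 genes, which the authors made by trimming with cutadapt 2.8 and aligning to hg19 with STAR. The paper names the nf-core RNA-Seq pipeline for this processing. Which program in it counted the reads, whether it used strand and whether molecular identifiers were collapsed is not given in the sources used here. Precision at low counts refers to counting error alone.

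Groups were taken from the sample titles and source names. Low genes were removed by edgeR's filterByExpr at a minimum count of 5 and a minimum total of 25, and the rest were scaled by TMM and tested with edgeR 4.0.16 (quasi-likelihood test, Benjamini-Hochberg adjustment over 12685 genes, threshold 0.05) in R 4.3.3, with all 24 libraries in 1 model and a coefficient per group. Standard errors were obtained from the F statistic. Log2 CPM used a prior count of 2. The steps were tested on simulated data. Positions came from GENCODE v44lift37 and near copies from BLAST 2.17.0 (at least 80 aligned bases at 97% identity). All 10 members are described, at most 4 called genes are named per list and comparison, and 3 nearest genes per member. CPM of genes outside these rules appear only for genes that overlap a member. A called gene that the rule names among the AP-1 targets is not reported here.

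The members, gene lists and tests were chosen with earlier results of these data known. Alternatives were 10 planned settings, among them DESeq2 1.42.0, and each of the 24 libraries left out in turn. DESeq2 was first run at its default filtering level of 0.1. The level was set to 0.05, the adjusted p threshold, after those values had been seen, and the default is kept as 1 added setting.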

Additional observations from a re-analysis of the deposited data

Results flagged for a closer look

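Within groups of 4 libraries, a library standing far from the other 3 by Dixon's test was looked for in each of the 10 genes, and chance alone gives about 1 such group in 20. JUND was at 97.4 CPM in ISRIB replicate 3, where the other libraries lay between 48.9 and 53.8 CPM. MAFF was at 39.6 CPM in Btz replicate 2, below the other libraries at 54.9 to 56.8 CPM, and MAFG at 76.5 CPM in ISRIB replicate 2, above the others at 63.8 to 65.6 CPM. The remaining 4 cases are at a handful of counts: FOS at 0 CPM in DMSO replicate 1 and at 0.668 CPM in Btz+ISRIB replicate 1, and FOSB at 0.847 CPM in ISRIB replicate 3 and at 1.78 CPM in Btz+ISRIB replicate 1.

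The response to nelfinavir differed with and without bortezomib for 3 genes, by edgeR's interaction test. The interaction was 0.85 for MAFF, 0.67 for MAFK and -0.61 for JUN on the log2 scale, with adjusted p of 0.00199, 0.00317 and 0.00144.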

How the results depend on the processing

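Of 1344 repeats of the 64 results on single members, 1300 stayed on their side of the threshold, 39 lost the call, 5 gained it and 0 called values changed sign. Of the 1300, 52 changed sign in values that were called in neither fit, at log2 values from -0.09 to 0.14, and 1248 kept their sign. Requiring changes above 2-fold (glmTreat) left 5 members called for Btz vs DMSO, where FOSL2 and JUND lost their calls. It left 0 for Nelf vs DMSO, 1 for Btz+Nelf vs Btz, 0 for Btz+ISRIB vs Btz, 0 for Btz+Nelf vs Btz+ISRIB and 0 for the interaction of nelfinavir with bortezomib. Over all genes it left 1192, 121, 0, 66, 10, 48, 126 and 4 in the 8 comparisons, against 6773, 2441, 0, 3669, 1553, 3098, 2505 and 612, which follows from the stricter threshold. Leaving out each library in turn gave 7 to 7 members called for Btz vs DMSO, 5 to 6 for Nelf vs DMSO, 0 to 0 for ISRIB vs DMSO, 4 to 5 for Btz+Nelf vs Btz, 1 to 3 for Btz+ISRIB vs Btz, 5 to 6 for Btz+Nelf vs Btz+ISRIB, 3 to 3 for the nelfinavir interaction and 0 to 1 for the ISRIB interaction. For Btz+ISRIB vs Btz the count was 1 without Btz replicate 3, Btz+ISRIB replicate 1 or Btz+ISRIB replicate 2, and for the ISRIB interaction it was 1 without ISRIB replicate 3; the cause was not tested. DESeq2, with its filtering level set after values had been seen, called the same number of members as edgeR in all 8 comparisons at either level, and over all genes 21 (level 0.05) or 19 (default) for ISRIB vs DMSO, 2674 or 2663 for Nelf vs DMSO and 923 or 891 for the ISRIB interaction, against 0, 2441 and 612 by edgeR. A model of only the groups compared called 80 genes for ISRIB vs DMSO, 3873 for Nelf vs DMSO, 2246 for Btz+Nelf vs Btz, 867 for Btz+ISRIB vs Btz and 1740 for Btz+Nelf vs Btz+ISRIB, against 0, 2441, 3669, 1553 and 3098, and no filter called 39 for ISRIB vs DMSO; the cause was not tested. Library totals alone gave 1490 higher and 6266 lower genes for Btz vs DMSO, against 3498 and 3275 with TMM, and 278 and 285 for the ISRIB interaction, against 372 and 240.

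No source ties the replicate numbers to a shared culture or day, and after removal of group means the correlation was over 0.1 in 10 of 60 same-numbered pairs, not in all, so the libraries were not treated as paired. It was over 0.1 in 7 of 180 other pairs, and 14 of 24 libraries were closest to their own number, a hint of pairing from the data alone. With the replicate number as a block, 7, 6, 0, 5, 3, 5, 3 and 0 members were called in the 8 comparisons, as without it. With 0 to 8 counts per library, FOS and FOSB were not called without the filter either (lowest unadjusted p = 0.196).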
